A study of Mus musculus with 2 samples.

Results

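The genes described here are 7 members of the Sox family of transcription factors: Sox1, Sox2 and Sox3 of the SoxB1 group, Sox8 and Sox9 of the SoxE group, and Sox4 and Sox11 of the SoxC group. They were taken by name from the 18088 genes of the deposited matrix, which held 18 rows with a symbol that starts with Sox. The cells came from the medial ganglionic eminence (MGE), a part of the embryonic ventral forebrain that gives rise to cortical interneurons and to GABAergic and cholinergic neurons of the basal forebrain. Embryos were CD-1 mice at E11.5 that carried the enhancer hs192 or hs799, and all cells were run as 1 pooled single-cell RNA library with MULTI-seq sample barcodes. Of the 6 sample barcodes, 4 marked cells gated on GFP and 2 marked ungated cells, with both enhancers in each kind. Because cells were not assigned to these barcodes here, the pool is 1 sample. The enhancer lines could not be compared, and the gate may set the share of any class.

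Sox proteins bind DNA through a domain of the HMG type and act with partner factors. SoxB1 proteins are known for holding neural progenitors in an undifferentiated state, SoxE proteins for radial glial and later glial identity, and SoxC proteins for turning on genes of early neurons. A common textbook account is therefore a handover from SoxB1 and SoxE in cycling progenitors to SoxC in newborn neurons. In the MGE, conditional loss of Sox2 and loss of Sox6 have also been linked to interneuron development, and Sox2 is known to persist in some postmitotic neurons.

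The deposited matrix held 4001 cells, of which 3995 were used, with 10475 to 14196 summed values per cell (median 12506) and 2471 to 5486 genes (median 3989). Cells were clustered without any Sox gene among the variable genes, which gave 17 clusters. Ventricular zone (VZ) progenitor-like cells, named from genes such as Hes5, Nes and Vim, made up 1183 cells in 4 clusters. Subventricular zone (SVZ) progenitor-like cells, named from genes such as Dll1 and Dll3, made up 569 cells in 3 clusters. Neuron-like cells made up 2243 cells in 10 clusters, of which 691 were named MGE GABAergic-like from Lhx6, Sst, Maf and others, 875 cholinergic-lineage-like from Lhx8, Zic1, Gbx1 and others, and 155 like neurons of the lateral ganglionic eminence (LGE). The remaining 522 neuron-like cells had no subtype name. Lhx6 did not separate the MGE GABAergic-like from the cholinergic-lineage-like cells, with levels given below. Of the 8 listed cholinergic-lineage markers, 2 had no row. Vascular markers were near 0: the summed level of the endothelial markers with a row was at most 0.011 per 10000 in the VZ, SVZ and neuron-like classes, and that of mural or meningeal markers 0.034 to 0.080. Cldn5, Cdh5 and Csf1r were among the markers without a row. Globin and other erythroid markers lay between 1.69 and 2.03 per 10000 in the same 3 classes. Markers of neurons from other regions were present in the 522 neuron-like cells with no subtype name, with summed levels of 2.18 for hypothalamic or thalamic and 0.542 for glutamatergic markers, against 0.016 and 0.014 in VZ cells. Such markers were among the leading genes of cluster 15 (99 of these cells, Hmx2 and Hmx3) and cluster 17 (40 cells, Otp and Sim1). Cluster 5, with 278 of these cells, instead held Lhx6 (3.27), Nkx2-1 (3.43) and Gad2 (5.72).

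A level here is the summed value of a gene in a group of cells per 10000 summed values of that group, and the SD is the spread over cells of 1 library. Cells are not replicates, so no test was possible and no difference below could be weighed against variation between embryos. Shares of cells were taken after thinning every cell to 10000 values. They carry exact (Clopper-Pearson) 95% intervals that cover the counting of cells only.

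In the GENCODE annotation of GRCm38, all 7 identifiers were found with the same symbol. Sox2 (ENSMUSG00000074637, chr3:34650405-34652461, plus strand) is a gene of 1 exon that lies within the span of the long noncoding gene Sox2ot on the same strand, with 0 exon bases in common. Sox1 (ENSMUSG00000096014, chr8:12395295-12400126, plus strand) lies in the same way within Sox1ot. Over the exon of the Sox gene, unspliced RNA of the noncoding gene could not be told apart from that of the Sox gene. This holds also if only reads in exons were counted. The sources used here do not say whether reads in introns were counted. Sox3 (ENSMUSG00000045179, chrX:60891366-60893430), Sox4 (ENSMUSG00000076431, chr13:28948919-28953713) and Sox11 (ENSMUSG00000063632, chr12:27334264-27342574) also have 1 exon and are on the minus strand. Sox8 (ENSMUSG00000024176, chr17:25565892-25570686, minus strand) and Sox9 (ENSMUSG00000000567, chr11:112782224-112787760, plus strand) have up to 3 exons. Sox4 overlaps Gm26735, and Sox8 overlaps 2810468N07Rik, both on the opposite strand. The sources used here do not say whether counting used strand.

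RefSeq promoter windows of the build GRCm38.p6 were matched for 5 of the 7 genes (Sox1, Sox2, Sox4, Sox8 and Sox11). Shown here are the 250 bases before the RefSeq start of Sox4 and Sox11, whose levels were higher together outside the VZ class, and of Sox2, which did not go with them. Capitals mark the E-box CAGCTG, a site type bound by proneural factors, and the CCAAT box, in either orientation (CCAAT or ATTGG).
Sox4: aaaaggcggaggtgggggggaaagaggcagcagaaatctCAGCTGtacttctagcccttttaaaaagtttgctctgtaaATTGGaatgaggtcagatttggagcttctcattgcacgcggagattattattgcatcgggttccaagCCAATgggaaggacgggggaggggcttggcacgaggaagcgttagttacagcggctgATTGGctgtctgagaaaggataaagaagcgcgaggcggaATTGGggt
Sox11: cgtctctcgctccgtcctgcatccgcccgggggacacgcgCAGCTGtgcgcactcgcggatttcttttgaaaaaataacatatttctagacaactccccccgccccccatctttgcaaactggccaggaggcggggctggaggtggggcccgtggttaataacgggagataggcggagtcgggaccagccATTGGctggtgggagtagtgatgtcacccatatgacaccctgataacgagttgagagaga
Sox2: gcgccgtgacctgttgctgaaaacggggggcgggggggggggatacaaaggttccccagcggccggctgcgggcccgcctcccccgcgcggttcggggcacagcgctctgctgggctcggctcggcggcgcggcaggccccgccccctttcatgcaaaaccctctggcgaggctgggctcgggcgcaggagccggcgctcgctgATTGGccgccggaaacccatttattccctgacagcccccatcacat
The windows are chr13:28953700-28953949 (minus strand) for Sox4, chr12:27342719-27342968 (minus strand) for Sox11 and chr3:34649745-34649994 (plus strand) for Sox2. Positions below count back from the RefSeq start. For Sox1, Sox2, Sox4 and Sox11 it is not the start of the GENCODE span given above. An E-box stood at position -211 before the start of Sox4 and at -210 before that of Sox11, and the other 3 windows held none. Over 32851 RefSeq promoter windows of the same length, 13% held this E-box and 33.8% held a CCAAT box. Sox4 had 4 CCAAT boxes, Sox11, Sox2 and Sox1 had 1 each, and Sox8 had 0. The letters ACAAAG, part of a Sox binding site, were found in either orientation in 16.5% of the windows, and among the 5 genes in that of Sox2 alone, at -206. The letters TGGGAA, the core of an Rbpj site, were in 21.6% of the windows and here at -100 before Sox4. These matches describe letters in the windows and say nothing about binding in these cells.

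Sox4 and Sox11 were higher in neuron-like than in VZ progenitor-like cells, and Sox1, Sox2, Sox8 and Sox9 were lower. Of the 7 genes, 2 were at least 2-fold higher and 4 at least 2-fold lower, where 16.3% and 23.6% of the 14991 genes compared passed the same marks. Sox3 passed neither. The median log2 ratio of neuron-like to VZ progenitor-like cells was -1.19 over the 7 genes and -0.15 over all genes compared. Between SVZ and VZ progenitor-like cells, 2 of the 7 genes (Sox4 and Sox11) were at least 2-fold higher and 2 (Sox8 and Sox9) at least 2-fold lower. Of the 13485 genes compared there, 4.86% were higher and 12.8% lower by that much. Single genes missed the mark of 2-fold under other settings: Sox9 in the SVZ class stood at a log2 ratio of -0.95 with called doublets kept and between -0.81 and -0.80 with resolution 0.5, resolution 2 or 4000 variable genes. Sox2 in neurons stood at the mark, at -1.0, when a cluster counted as neuron from the general neuron markers alone.

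**Figure D1:**
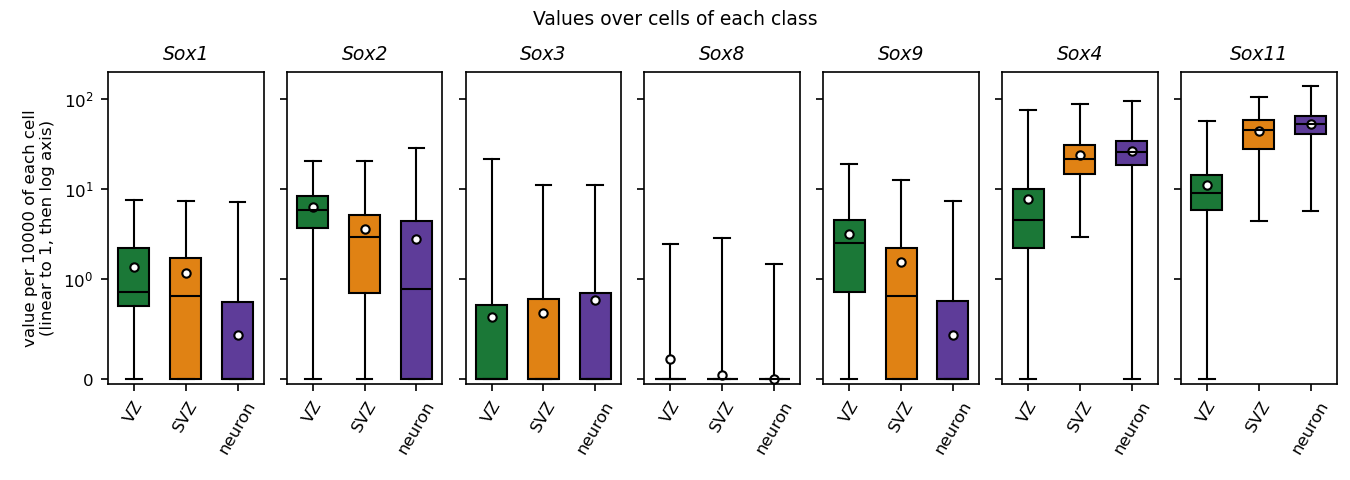
Value per 10000 of each cell for the 7 Sox genes in VZ progenitor-like, SVZ progenitor-like and neuron-like cells, on an axis that is linear up to 1 and logarithmic above. Boxes span the 25% and 75% points with the median as a line, whiskers reach the lowest and highest cell, and white points are class levels; Sox4 and Sox11 sit higher in the SVZ and neuron-like classes, while the Sox2 box in neurons reaches from 0 to 4.39.

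Among the SoxB1 genes, which are known to act redundantly in neural progenitors, the 3 members differed. Sox1 had a level of 1.37 ± 1.16 (SD, n = 1183 cells) in the VZ class, 1.18 ± 1.23 (n = 569 cells) in the SVZ class and 0.436 ± 0.868 (n = 2243 cells) in neuron-like cells. It therefore kept nearly its VZ level in the SVZ class (log2 ratio -0.22) and was lower in neurons, with a log2 ratio to the VZ class of -1.65. The share of cells with a Sox1 value was 70.8% (95% interval 68.1% to 73.3%), 62.4% (58.3% to 66.4%) and 26.0% (24.2% to 27.9%) in the 3 classes. In the LGE neuron-like cells it was 23.2%.

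Sox2, the SoxB1 gene best known from stem cells, was the most widely found of the group in progenitors. Its level was 6.40 ± 3.34 in the VZ class, 3.56 ± 3.19 in the SVZ class and 2.81 ± 3.63 in neuron-like cells. Over cells the lowest, median and highest values were 0, 5.92 and 20.3 in the VZ class and 0, 0.900 and 28.6 in neuron-like cells. The neuron-like cell with the highest value thus lay above every VZ cell, although the median neuron-like cell was near 1. A Sox2 value was present in 98.6% of VZ cells (97.7% to 99.2%), 81.7% of SVZ cells (78.3% to 84.8%) and 62.8% of neuron-like cells (60.8% to 64.8%). The log2 ratio of neuron-like to VZ cells was -1.19, so that neurons as a class held 2.28-fold less.

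Sox3, an X-linked SoxB1 gene, was not lower in neurons. Its levels were 0.621 ± 1.42 in the VZ class, 0.660 ± 1.31 in the SVZ class and 0.787 ± 1.5 in neuron-like cells, a log2 ratio of 0.34 between the last and the first. The shares of cells were 36.5% (33.8% to 39.3%), 32.3% (28.5% to 36.4%) and 33.5% (31.6% to 35.5%). Its highest value in any cell, 21.3, was in a VZ cell. The neuron-like subtypes lay on both sides of the VZ level. Sox3 was at 1.59 ± 2.16 in the cells with no subtype name, which held 1018 of the 2160 summed values in neuron-like cells. It was at 0.861 ± 1.42 in GABAergic-like, 0.386 ± 0.876 in cholinergic-lineage-like and 0.030 ± 0.187 in LGE neuron-like cells.

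The SoxE genes had the largest differences in the downward direction. Sox9, which is known to be needed for neural stem cell and glial identity, had a level of 3.19 ± 2.70 in the VZ class, 1.54 ± 1.98 in the SVZ class and 0.438 ± 0.889 in neuron-like cells. A Sox9 value was found in 83.8% (81.5% to 85.8%), 63.3% (59.2% to 67.2%) and 26.8% (25% to 28.7%) of these cells, and in 7.10% (3.60% to 12.3%) of LGE neuron-like cells, the lowest share of any named class. Sox8, a paralog of Sox9 better known from glia and neural crest, was sparse: its summed value was 306 over all VZ cells, 28 over SVZ cells and 8 over neuron-like cells. It was found in 16.9% (14.8% to 19.2%) of VZ cells, 3.51% (2.16% to 5.38%) of SVZ cells and 0.223% (0.072% to 0.519%) of neuron-like cells. No MGE GABAergic-like cell held a Sox8 value, and with 0 of 691 cells the exact interval reached 0.532%. In VZ cells Sox8 was found as often with as without a Sox9 value, in 17.1% (14.8% to 19.5%) and 16.1% (11.2% to 22.1%) of cells, so the intervals overlapped.

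The SoxC genes had the opposite pattern, and most of the difference lay between the VZ and SVZ classes. Sox4 had a level of 7.81 ± 9.50 in the VZ class, 24.0 ± 13 in the SVZ class and 26.6 ± 11.9 in neuron-like cells. Its log2 ratio to the VZ class was 1.62 in the SVZ class and 1.77 in neurons. Sox11 had levels of 11.1 ± 8.31, 44.3 ± 20.2 and 52.9 ± 17.3, with log2 ratios of 2.0 and 2.26. From the SVZ class to neurons the log2 ratios were only 0.15 for Sox4 and 0.25 for Sox11. The SVZ class was not uniform. By 3 equal groups of its summed S phase genes, from low to high, Sox4 was at 28.7, 26.0 and 17.8. Sox11 was at 57.7, 46.1 and 30.2 over the same groups. SVZ cells with the most S phase transcripts thus lay below the neuron-like level for both genes. Among VZ cells, 90.2% (88.4% to 91.8%) had a Sox4 value and 99.4% (98.8% to 99.8%) a Sox11 value. No class here should lack Sox4 or Sox11, so these shares have no background share beside them, and the part of free RNA in them was not tested. For comparison, the lowest shares in a named class were 16.1% for Sox2 and 7.10% for Sox9, both in LGE neuron-like cells. For Sox11, 25% of VZ cells lay above 14.4 and 75% of neuron-like cells above 41.0, with overlap at the extremes (highest VZ cell 56.6, lowest neuron-like cell 5.65).

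Values of Sox2 or Sox9 and of Sox11 were also found in the same cells. A Sox2 and a Sox11 value occurred in the same cell in 98.1% (97.1% to 98.8%) of VZ cells, 81.7% (78.3% to 84.8%) of SVZ cells and 62.8% (60.8% to 64.8%) of neuron-like cells. For Sox9 with Sox11 the shares were 83.5% (81.3% to 85.6%), 63.3% (59.2% to 67.2%) and 26.8% (25% to 28.7%). Since nearly every cell held Sox11, these shares follow those of Sox2 and Sox9, and the part of free RNA in them was not tested either. A Sox4 value was present in 90.2% of VZ cells, 100% (99.4% to 100%) of SVZ cells and 99.87% (99.61% to 99.97%) of neuron-like cells. Between classes, Sox2 and Sox9 thus differed in both level and share, and Sox4 in level and, by less, in share. The shares of Sox11 were near 100% in each class, so they could show little difference.

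To place the members in order without clusters, cells were ranked by a score, the mean log level of 11 neuron markers minus that of 9 VZ markers, with no Sox gene in it, and divided into 10 ranges of 399 or 400 cells. VZ-like cells filled 82.0% of range 3, SVZ-like cells 76.2% of range 4 and neuron-like cells 93.5% of range 6. A range is a stretch of the score and not a cell type, and 466 cells lay within 0.02 of a boundary. Sox9 was highest in range 1 and was already lower in range 2, with 4.60 and 2.80. Hes5, a Notch target kept up in VZ cells, went from 17.8 to 11.7 over the same ranges. Since Hes5 is among the VZ markers of the score, its fall along the ranges largely follows from the score. Sox2 and Sox8 differed less over the first 3 ranges: Sox2 was at 6.83, 6.40 and 6.02, and Sox8 at 0.218, 0.207 and 0.158. Sox1 had its highest level in range 2 (1.47).

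Steps between neighbouring ranges were compared as log2 ratios. The largest step of Sox4 and of Sox11 lay between ranges 3 and 4. Sox4 went from 12.1 to 24.6 and Sox11 from 13.6 to 40.3, while the neuronal tubulin gene Tubb3 went from 3.49 to 14.0. Sox8 had its largest step between ranges 4 and 5, from 0.050 to 0.004, and so did Hes5 (1.90 to 0.433). Tubb3 and Hes5 are among the markers of the score, so their changes along it largely follow from how it was made. Sox9 had no single dominant step: it went from 1.5 in range 4 to 0.840 in range 5, but its largest difference in level was the one between ranges 1 and 2. Sox1 had its largest step between ranges 6 and 7 (0.620 to 0.326), after the mitotic gene Top2a had gone from 1.86 in range 5 to 0.357 in range 6.

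Sox2 followed this order only in part, and Sox3 did not. Sox2 went from 6.02 in range 3 to 4.01 in range 4, where Sox4 and Sox11 had their largest step, and to 2.95 in range 5. It lay between 2.86 and 3.2 in ranges 5 to 9 and was at 1.44 in range 10, its largest step as a log2 ratio. Sox3 was highest in range 6 (1.22), above range 1 (0.440) and range 10 (0.205). Sox4 was highest in range 9 (28.1) and Sox11 in range 6 (59.0), with 23.1 and 44.7 in range 10. The range with the highest Sox3 level was also range 6 when the score used the neuron markers or the VZ markers alone.

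**Figure D2:**
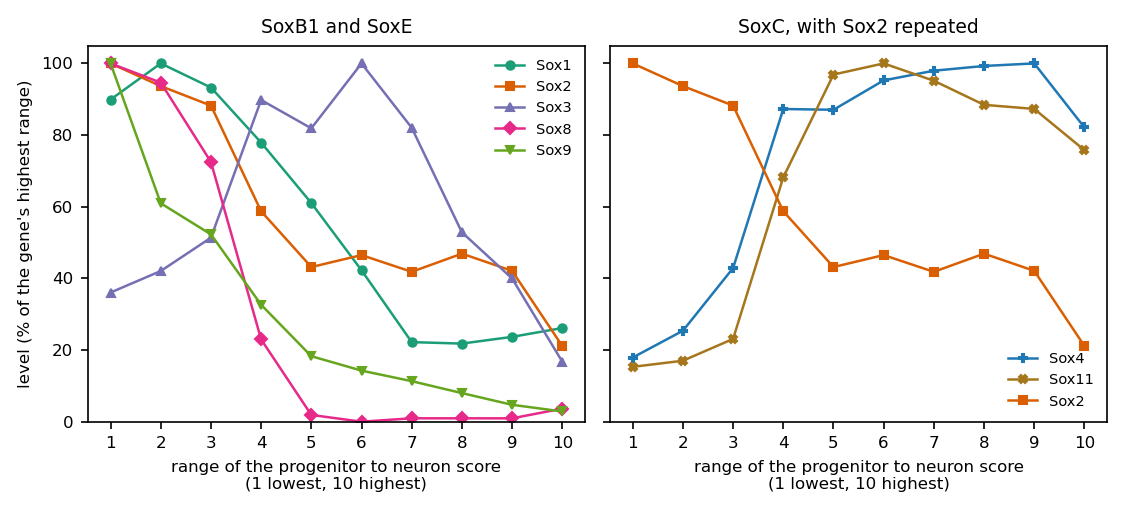
Level of each Sox gene in 10 ranges of the progenitor to neuron score, as a percentage of that gene's highest range; each point is 399 or 400 cells of 1 library. Sox9 and Sox8 drop to low levels by range 5, Sox4 and Sox11 climb between ranges 3 and 4, and Sox3 has its highest point in range 6. Sox2 drops between ranges 3 and 5 and holds between ranges 5 and 9.

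Clusters showed how the neuron-like cells differed among themselves. Sox2 was highest in VZ cluster 3, led by histone genes (7.47 ± 3.30), and lowest in LGE-like cluster 12 (0.359 ± 1.19). The 10 neuron clusters covered much of this range. Cluster 5, led by Prox1os and St18, had 5.52 ± 4.04, cluster 1, led by Sst and Calb1, 4.78 ± 3.68, cluster 15, led by Hmx2 and Hmx3, 4.62 ± 4.15, and cluster 11, led by Gucy1a1 and Gabra2, 4.06 ± 4.35. Cluster 14, led by Gm42583 and Nefl, was at 2.95 ± 3.78. The other 5 lay at 1.17 or below: cluster 17, led by Nrn1 and Otp (1.17), cholinergic-lineage-like clusters 4, 7 and 6 (0.921, 0.798 and 0.617) and LGE-like cluster 12. The levels of the first 4 lay below those of VZ clusters 2, 13 and 16 (5.62, 5.66 and 5.58) by less than the SD over cells. In the order of all 17 clusters by level, 0 of 16 neighbouring pairs differed by more than the SD over cells, for each of the 7 genes. Neighbours in a sorted order are close by construction, so this count cannot tell whether clusters differ. Lhx8 also gave 0 of 16, although its cluster levels ran from 0.111 to 11.7.

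**Figure D3:**
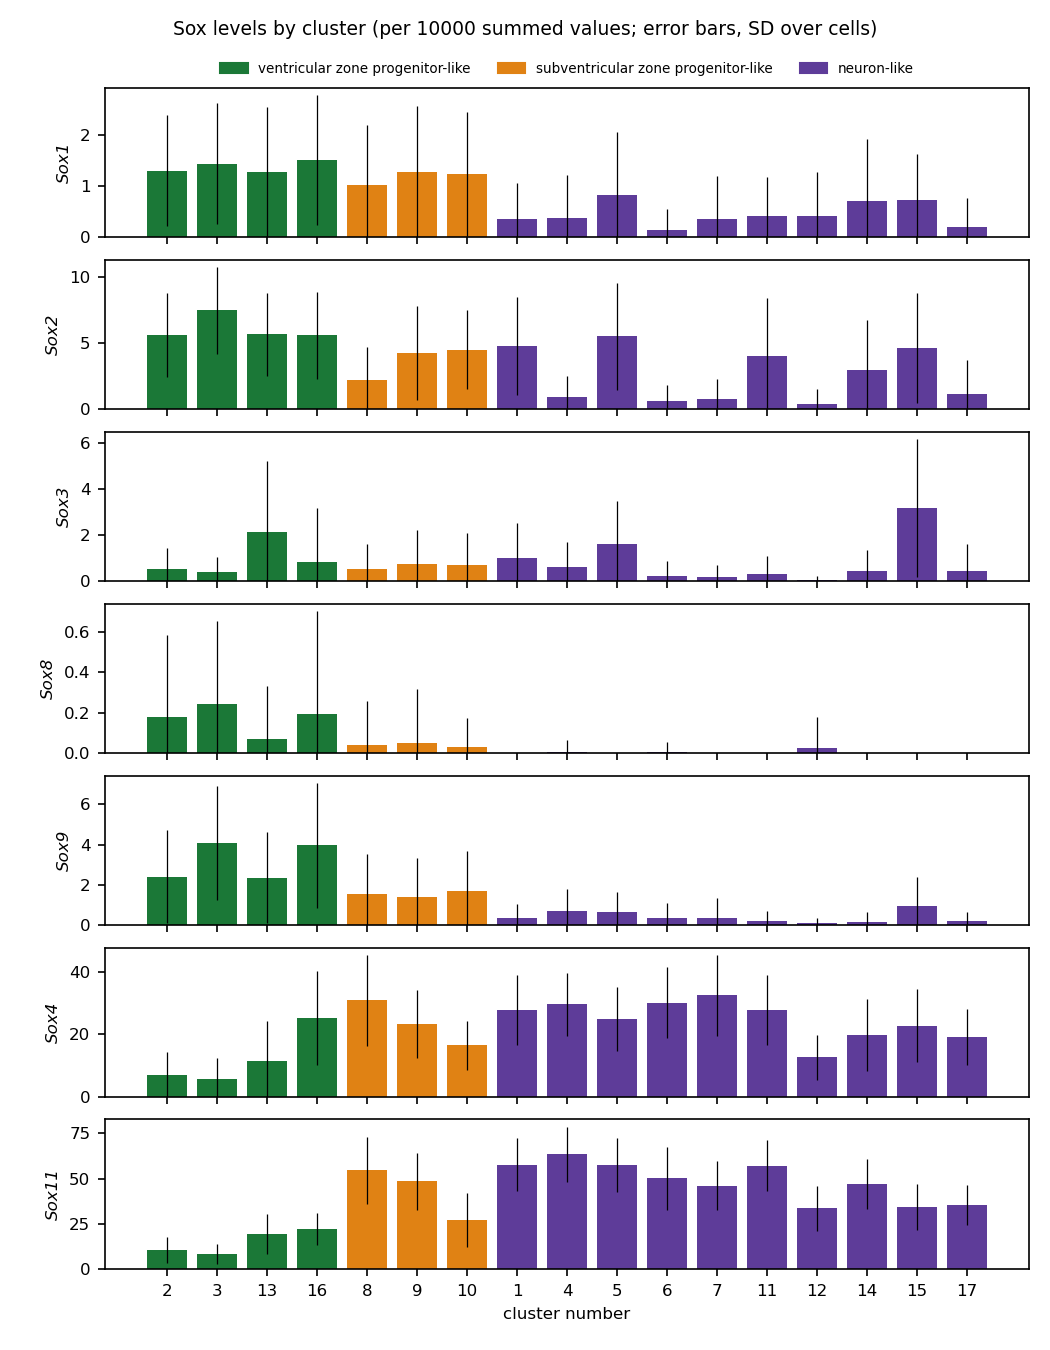
Level of each Sox gene in 17 clusters made without Sox genes, per 10000 summed values, with the SD over cells as error bars (lower bars end at 0) and clusters grouped by class. Sox1, Sox8 and Sox9 are lower in all neuron-like clusters than in the VZ clusters, Sox4 and Sox11 are higher in most of them, and Sox2 and Sox3 are high in some neuron-like clusters and low in others.

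Clusters 1 and 11 formed the GABAergic-like class and clusters 4, 6 and 7 the cholinergic-lineage-like class, and both held Lhx6 and Gad2. Lhx6 was at 3.47 and 2.25 in the former clusters and at 3.62, 3.26 and 2.35 in the latter. Gad2 was at 8.44 and 8.15, against 7.63, 7.52 and 5.24. Zic1 was at most 0.394 in the former and at least 3.505 in the latter. The names thus follow markers such as Zic1 and do not divide cells by Lhx6 or Gad2. Between the named MGE neuron classes, Sox2 was the member that differed most. Its level was 4.62 ± 3.85 (n = 691 cells) in MGE GABAergic-like and 0.80 ± 1.47 (n = 875 cells) in cholinergic-lineage-like cells, a log2 ratio of -2.53. Only 0.25% of the 12271 genes compared had a lower log2 ratio. Of the members compared, 2 (Sox2 and Sox3) were at least 2-fold lower in cholinergic-lineage-like cells and 0 at least 2-fold higher, where 2.18% and 2.84% of all genes passed. Sox8 was too sparse to be compared. A Sox2 value was found in 87.8% (85.2% to 90.2%) of MGE GABAergic-like and 40.2% (37.0% to 43.6%) of cholinergic-lineage-like cells, against 16.1% (10.7% to 22.9%) of LGE neuron-like cells. Median cell totals were similar in the 3 groups, at 12020, 11858 and 13233, but these are totals of the deposited values and do not give the raw depth. Cells with few values equal to 1 made up 4.63% of the GABAergic-like and 8.0% of the cholinergic-lineage-like cells, and without such cells the log2 ratio was -2.59. Over 10 alternative settings of clustering and scaling it lay between -2.72 and -2.11.

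The other members differed less between these neurons. Sox3 was at 0.861 ± 1.42 in GABAergic-like and 0.386 ± 0.876 in cholinergic-lineage-like cells (log2 ratio -1.16). This ratio depended on the clusters, at -1.79 with another clustering seed, -1.85 at resolution 0.5 and -2.17 with neurons named from the general neuron markers alone. Sox4 (27.7 and 30.4, log2 ratio 0.13) and Sox11 (57.6 and 55.0, log2 ratio -0.07) were nearly level. Sox9 had a log2 ratio of 0.68 (0.323 and 0.516), but it was -0.08 with clustering at resolution 0.5, so its direction depended on the clusters. Sox1 had a log2 ratio of -0.27 (0.370 and 0.307), and -1.02 with another clustering seed. Sox2ot went with Sox2, at 0.848 and 0.187 (log2 ratio -2.18), and Sox1ot was at 0.115 and 0.034 (log2 ratio -1.75).

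Within the ranges of the score the difference in Sox2 was present at each step that held at least 20 cells of both groups. In range 6, Sox2 was at 4.01 ± 3.23 (n = 65 cells) in GABAergic-like and 1.09 ± 1.98 (n = 176 cells) in cholinergic-lineage-like cells. In range 8 the levels were 5.24 ± 4.07 (n = 178 cells) and 0.804 ± 1.37 (n = 165 cells), and in range 10 they were 3.75 ± 3.85 (n = 103 cells) and 0.619 ± 1.16 (n = 121 cells). The cholinergic-lineage-like cells of range 5, the lowest range with enough of them, were already at 0.871 ± 1.19 (n = 99 cells). The level stretch of Sox2 in ranges 5 to 9 thus pooled cells with high and with low Sox2. Sox11 was at 60.1 and 63.2 in range 6 of the same groups and at 59.6 and 44.7 in range 10, so the late level was lower in the cholinergic-lineage-like cells and not in the GABAergic-like cells. Sox9 was at 0.683 and 0.664 in range 6, 0.406 and 0.680 in range 7 and 0.135 and 0.191 in range 10, lower at the end of the score in both groups.

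**Figure D4:**
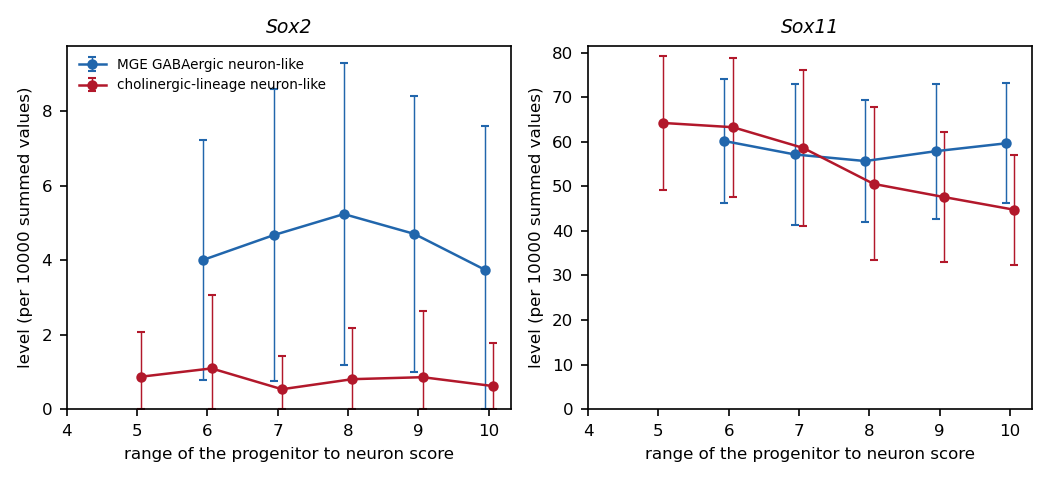
Levels of Sox2 (left) and Sox11 (right) per 10000 summed values in MGE GABAergic-like and cholinergic-lineage-like neurons by range of the progenitor to neuron score, with the SD over cells as error bars (lower bars end at 0); ranges with under 20 cells of a group are not drawn. Sox2 is at 3.75 to 5.24 in the GABAergic-like cells and at 0.534 to 1.09 in the cholinergic-lineage-like cells, while Sox11 overlaps in range 6.

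Lhx8, a LIM homeobox gene needed for cholinergic neurons of the basal forebrain, is a marker behind the cholinergic-lineage name, so its own difference is no result here. Sox2 was followed along it because Sox2 had no part in the clusters. When the 2243 neuron-like cells were put in 4 groups of 560 or 561 cells by Lhx8, Sox2 was at 3.89 ± 4.16, 4.32 ± 4.10, 2.04 ± 2.80 and 0.93 ± 1.71 from the lowest Lhx8 to the highest. The shares of cells with Sox2 were 68.3%, 80.7%, 60.4% and 41.8%. Sox2 was thus highest in the group with a little Lhx8 (level 1.92) and not in the group with next to none (0.023). Inside the GABAergic-like class, the 346 cells with less Lhx8 had Sox2 at 5.58 ± 3.89 and the 345 with more at 3.65 ± 3.57. Inside the cholinergic-lineage-like class the levels were 0.90 ± 1.64 and 0.70 ± 1.28. GABAergic-like cells with more Lhx8 (level 7.15) and cholinergic-lineage-like cells with less (7.18) had nearly the same Lhx8, and Sox2 differed between them, 3.65 against 0.90. Clusters 12, 14, 15 and 17 had little Lhx8 (0.262 to 0.428) and Sox2 anywhere from 0.359 to 4.62.

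**Figure D5:**
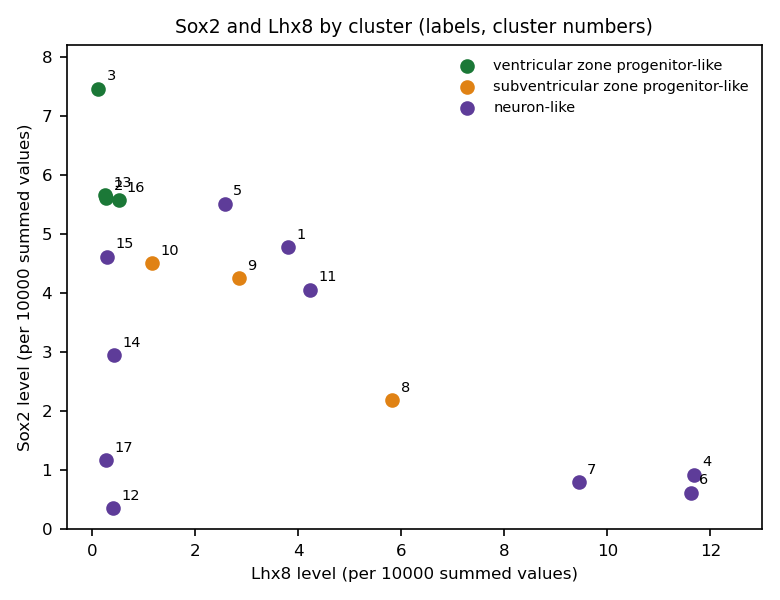
Sox2 level against Lhx8 level in the 17 clusters, both per 10000 summed values, with cluster numbers beside the points and colours for the class. Clusters 4, 6 and 7 combine Lhx8 above 9 with Sox2 below 1, and clusters with Lhx8 under 1 cover nearly the whole range of Sox2.

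Among the SVZ progenitor-like clusters, the one with the most Lhx8 had the least Sox2, at a level between those of the GABAergic-like and cholinergic-lineage-like cells. Cluster 8, led by Gsx1 and Dll3, had Lhx8 at 5.82 and Sox2 at 2.18 ± 2.49, with a Sox2 value in 67.7% (61.1% to 73.9%) of its 217 cells. Clusters 9 and 10, led by mitotic and histone genes, had Lhx8 at 2.85 and 1.15 and Sox2 at 4.25 ± 3.52 and 4.51 ± 3.0. Over the SVZ class, the 104 cells without a Sox2 value had Lhx8 at 7.24 ± 4.79, against 2.61 ± 3.71 in the 465 cells with one. The same 104 cells had less Hes5 (0.594 against 2.54) and more Sox11 (54.2 against 42.2). Cycle genes moved with this too: by 3 equal groups of the summed G2 and M phase genes, Sox2 in the SVZ class was at 2.16, 3.91 and 4.54. The part of the cycle genes in the Lhx8 difference was not tested.

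Sox3 had its highest levels in clusters of unlike class. It was at 3.18 ± 2.98 in neuron-like cluster 15, led by Hmx2, Hmx3 and Prdm13, at 2.12 ± 3.08 in VZ cluster 13, led by Pax6, Igfbp5 and Irs4, and at 1.61 ± 1.87 in neuron-like cluster 5. A Sox3 value was present in 74.7% (65.0% to 82.9%), 73.0% (64.0% to 80.9%) and 61.2% (55.2% to 66.9%) of their cells, and in 2.58% (0.708% to 6.48%) of cluster 12. The large clusters of the VZ class, 2 and 3, were at 0.512 and 0.379. The leading genes of clusters 13 and 15 include Pax6 and Hmx3, which are better known from regions next to the MGE. Where these cells came from was not tested.

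Sox4 and Sox11 had the most similar levels over clusters of the 21 pairs of members, with a Pearson correlation of 0.90 over the 17 clusters (a description, since the clusters come from 1 library). Sox4 was highest in cholinergic-lineage-like cluster 7, led by Asic4 and Chl1 (32.4 ± 12.9), and Sox11 in cholinergic-lineage-like cluster 4, led by Zic1 (63.4 ± 15.4). Both were lower in LGE-like cluster 12 (12.7 ± 7.27 and 33.5 ± 12.5) than in any other neuron-like cluster. VZ cluster 16, a group of 64 cells led by Sulf1 and Tal2 with Ttyh1 and Fabp7 among its leading genes, was unusual: it had Sox4 at 25.3 ± 14.9, close to neurons, beside Sox9 at 3.96 ± 3.12. Its Sox11 was 22.1 ± 8.80, above VZ clusters 2 and 3 (10.7 and 8.33) and below the neuron-like clusters. Cells with few values equal to 1 made up 14.1% of this cluster, against 3.38% of the VZ class; their part in its Sox4 level was not tested.

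Within the VZ class, members varied with cycle genes. By 3 equal groups of the summed G2 and M phase genes, from low to high, Sox2 was at 4.95, 6.48 and 7.72 and Sox9 at 2.64, 2.82 and 4.09. Over the same groups Sox4 was at 11.47, 5.16 and 6.91 and Sox3 at 0.939, 0.451 and 0.484. By S phase genes, Sox4 was at 11.9, 6.12 and 5.53 and Sox11 at 14.2, 9.87 and 9.20. SoxC levels were thus highest in VZ cells with the fewest S phase transcripts, but this was not particular to SoxC. From the lowest to the highest S phase group, Sox2 went from 6.95 to 5.88 and Sox9 from 3.77 to 2.81. Sox3 went from 0.859 to 0.51 and Sox1 from 1.44 to 1.27, while Sox8 alone was higher (0.163 to 0.209). The log2 ratio of these groups was -1.11 for Sox4, -0.75 for Sox3 and -0.62 for Sox11. Sox1 and Sox8 differed little, at 1.15 to 1.49 and 0.179 to 0.213 over the groups by G2 and M phase genes. VZ cells with a Sox9 value had more Hes5 (13.1 ± 9.61 against 6.80 ± 6.79) and less Dll1 (0.403 against 0.718) than the VZ cells without one.

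Genes linked to each Sox group in the literature gave a background for these levels. Of the 12 neuronal genes associated with SoxC, 11 were at least 2-fold higher in neuron-like than in VZ cells and 1, the TEAD factor gene Tead2, was at least 2-fold lower (log2 ratio -1.98), where 16.3% of all genes compared were higher and 23.6% lower by that much. Their median log2 ratio was 3.2. The list holds general neuronal genes such as Map2 and Stmn3, and the classes were named from neuron and VZ markers. The count thus largely follows from the class names, and a link of these genes to Sox4 or Sox11 was not tested. In the SVZ class 10 of them were already at least 2-fold higher than in the VZ class, against 4.86% of all genes. The most abundant were Stmn3, which encodes a microtubule-binding stathmin (log2 ratio of neuron-like to VZ cells 2.86), Dpysl3 (3.50), the RNA-binding protein gene Elavl3 (2.20) and Map2 (2.90). Of 16 listed genes of the glial programme associated with SoxE, 12 had a row and 11 were compared. Of these 11, 10 were at least 2-fold lower in neuron-like cells and 0 higher, against 23.6% and 16.3% of all genes. Their median log2 ratio was -3.60. The VZ class was named from progenitor markers, so this count also largely follows from the class names. A link of these genes to Sox8 or Sox9 was not tested. Olig2, a factor of ventral progenitors and oligodendrocytes, had a log2 ratio of -5.39, Ednrb -6.20 and Zbtb20 -1.08, while the glutamine synthetase gene Glul had 0.00.

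The 16 genes chosen as SoxB1 partners and progenitor genes were divided: 8 were at least 2-fold lower and 3 at least 2-fold higher in neuron-like than in VZ cells, with a median log2 ratio of -0.81. The same marks were passed by 23.6% and 16.3% of all genes, so the count of higher genes was near the background. The 3 that were higher encode POU factors, a family known to bind next to Sox2: Pou3f4 (log2 ratio 2.29), Pou3f2 (1.28) and Pou3f1 (1.05). Between the MGE neuron classes, Pou3f1 (1.13 in GABAergic-like and 4.70 in cholinergic-lineage-like cells) and Pou3f2 (0.931 and 3.67) were high where Sox2 was low, while Pou3f4 was level (3.59 and 3.69). Id4 and Cdh2, the other abundant genes of the list, had log2 ratios of neuron-like to VZ cells of -1.20 and 0.32.

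Other Sox genes with a row were Sox5, Sox6, Sox10, Sox12, Sox13, Sox14, Sox21 and Sox30. Sox6, a SoxD gene needed for MGE interneurons, was at 0.377 in VZ, 1.81 in SVZ and 2.33 in neuron-like cells, and Sox12, the third SoxC gene, at 0.531, 0.590 and 1.51. Sox12 thus did not share the step of Sox4 and Sox11 between the VZ and SVZ classes: its largest step lay between ranges 4 and 5 of the score (0.475 to 1.02). Sox21, a SoxB2 gene, was lower in neuron-like than in VZ cells (0.053 and 1.15, log2 ratio -4.45). Sox5 had a log2 ratio of -0.47, and Sox10 and Sox13 were at 0.071 or below in all 3 classes. Sox30 was at 0.0071 in VZ and 0.0084 in neuron-like cells, and Sox14 had a summed value of 26 in neuron-like cells and 0 in VZ cells. Of the noncoding neighbours, Sox2ot had a log2 ratio of neuron-like to VZ cells of -1.27 and Sox1ot of -2.12.

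The genes with the cluster pattern most like each member were ranked by the Pearson correlation of log2(level + 0.1) over the 17 clusters, among 9239 genes. For Sox2 they included Sox2ot (0.91), Pls3 (0.90), Mccc1 (0.82) and Dlg1 (0.80). For Sox3 they were Akr1e1 (0.87), Cald1, Rnh1, Dlg1 and Sox5, and for Sox1 Grb10 (0.97), Cr1l, Aida, Tmem237 and Mcm2. For Sox9 they were Smpd2 (0.96), Pabpc1, Ormdl2, Antxr1 and Mtr, and for Sox8 Mfsd2a (0.98), Rgcc, Tcf7l1, Fkbp9 and Vcam1. For Sox4 they were Peli1 (0.95), Map4k4, Ccdc174, Ddx5 and Pnrc1, and for Sox11 Tsg101 (0.98), Bod1l, Ddx5, Kdm6b and Smarce1. These lists depended on the measure: ranked by Spearman correlation, the 5 most similar genes shared 2 with the list above for Sox2, 1 each for Sox1, Sox4 and Sox11, and 0 for Sox3, Sox8 and Sox9. Over single neuron-like cells, Sox2 went with Nr2f1 (Pearson correlation 0.49) and Sox2ot (0.44) and against Zic1 (-0.40), Pou3f1 (-0.39) and Lhx8 (-0.37), genes picked after their values were seen. These are correlations over 2243 cells of 1 library, which pooled gated and ungated cells of both enhancer lines. The part of gate, line and raw depth in them was not tested.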

How the data were processed

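One pooled RNA library of MGE cells was analysed as 1 sample. Upstream software, per the submitters' processing notes, was bcl2fastq and Cell Ranger 3.0.2, and the genome build was GRCm38. The deposited values, treated as a score, are whole numbers that the authors made from UMI counts. They are not raw counts, because cell totals lie in a narrow range and 214 cells (5.35%) nearly skip the value 1. The sources used here do not give the step behind this, so raw depth per cell is unknown. The matrix held 0 mitochondrial rows and 9 symbols on more than 1 row, for which the row with the largest sum was kept.

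Python 3.11.15, scanpy 1.11.5 and igraph 0.11.9 were used. Scrublet at an expected rate of 5% called 6 doublets (0.150%), which were removed; whether it worked on these values was not tested, and other doublets may remain. Values scaled to 10000 per cell, 2000 variable genes without Sox genes, 30 components, 15 neighbours and Leiden clustering at resolution 1 gave 17 clusters. Naming a cluster took 3 or more markers that were each 1.5 times higher than in the rest and present in 10% of its cells. That neuron subtype markers also count toward the neuron class was decided after cluster values were seen. The members and the gene lists were chosen with earlier results of these data known.

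A ratio compares 2 levels of genes with at least 30 summed values over both groups. Named genes were the 7 members, other Sox genes and noncoding neighbours with a row, the most abundant genes of each other list, the leading genes of clusters, and for each member the 5 genes with the highest Pearson correlation over clusters among genes with at least 300 summed values. Genes beyond this rule, such as Hes5, Lhx8, Tubb3, Top2a, Dll1, Nr2f1 and Zic1, were chosen after their values were seen or as markers. Values of 1 gene that the rule names are not reported here. The calculation of levels and ratios was tested on simulated data. Alternatives in clustering, scaling, score ranges and minimum values were run.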

Additional observations from a re-analysis of the deposited data

How the results depend on the processing

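No paired analysis was possible because the matrix is 1 pooled library with no replicate numbers. Without replicate libraries no result could be weighed against variation between embryos, and raw depth is unknown. Of the values recomputed for levels, ratios and shares of genes, 414 stayed within 1.5 times and in the same direction, 28 moved further and 1 changed direction. The ratios of neuron-like to VZ cells stayed within that range for all 7 genes under the 10 alternatives of clustering and scaling. The value that changed direction was the log2 ratio of Sox9 between cholinergic-lineage-like and MGE GABAergic-like cells, -0.081 at resolution 0.5; it was 0.072 with seed 1. For Sox1 the same ratio was -0.89 at resolution 0.5, -1.07 with 4000 variable genes and -1.02 with seed 1. For Sox3 it was -1.85 at resolution 0.5, -1.79 with seed 1 and -2.17 when neurons were named from the general neuron markers alone, an alternative chosen after seeing the data. The log2 ratio of Sox3 between SVZ and VZ cells was 0.76 at resolution 0.5, 0.69 at resolution 2, 0.76 with 4000 variable genes and 0.83 with doublets kept. The Sox8 level in the SVZ class was 0.062, 0.0616 and 0.0617 at resolution 0.5, at resolution 2 and with 4000 variable genes, and its log2 ratio to the VZ class was then -1.53, -1.71 and -1.70. The log2 ratio of the last to the first range of the score, with 20 ranges, was -3.01 for Sox2, -1.73 for Sox3, -5.87 for Sox8 and -6.13 for Sox9, against -2.24, -1.11, -4.78 and -5.13 with 10 ranges. It was -5.77 for Sox8 with neuron markers alone and -4.51 for Sox9 with VZ markers alone. With a minimum of 1 summed value in each class, 7.95% of genes were 2-fold higher in SVZ than in VZ cells, and 6.47% higher and 6.61% lower in cholinergic-lineage-like than in GABAergic-like cells. With a minimum of 100 summed values the last 2 shares were 1.70% and 1.31%. Without thinning, the share of cells with a value left its interval for 7 of the 7 genes in VZ, 3 in SVZ and 4 in neuron-like cells, and with a minimum value of 2 for 7, 5 and 5. The cause of the other changes was not tested.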
